A study of Arabidopsis thaliana with 54 samples.

Results

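PORB, CHLM and GSA1 are nuclear genes for 3 enzymes of chlorophyll synthesis, and their RNA was followed in Arabidopsis thaliana seedlings exposed to ethylene or to shade. They were found by symbol, taking only array features that are paired with exactly 1 gene. Each gene had 1 such feature and no feature shared with another gene, so 3 features stand for 3 of the 16554 distinct genes that the array names in this way. The loci are AT4G27440 (PORB), AT4G25080 (CHLM) and AT5G63570 (GSA1).

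Chlorophyll is built in the plastid from glutamate. GSA1 encodes a glutamate-1-semialdehyde aminotransferase, which makes 5-aminolevulinic acid, the precursor that chlorophyll shares with haem. CHLM encodes the methyltransferase that acts on magnesium protoporphyrin IX, after the branch to haem has been left behind. PORB encodes an NADPH:protochlorophyllide oxidoreductase, which reduces protochlorophyllide only when it is lit. In Arabidopsis its relative PORA is lost soon after seedlings reach light, whereas PORB is known to persist in green tissue. Protochlorophyllide that builds up unbound in the dark is phototoxic at dawn, and the ethylene-activated factor EIN3 and the phytochrome-interacting factor PIF1 are known to act on POR genes in dark-grown seedlings. GSA2, PORA and PORC, which resemble the genes described here, were not analysed, and whether the 3 features also respond to their RNA was not tested.

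The 54 arrays hold 18 groups of 3, made of hypocotyl or cotyledon, 3 treatments and 3 harvests, all from the wild-type accession Col-0. Control seedlings grew in short days under photosynthetically active light of 140 µmol per square metre and second, with blue light of 29 in the same unit and a red to far-red ratio of 2.1. Ethylene seedlings had that light and the gaseous hormone at 1 µl per litre in closed glass desiccators, and shade seedlings were put under a green filter that gave 40 and 3 µmol per square metre and second and a red to far-red ratio of 0.45. Harvests were at 1.5, 13.5 and 25.5 h of treatment. The first and the last lie 24 h apart, and the second fell in the dark period, with dissection under a green safelight, so the dark, the time of day and the duration of treatment cannot be told apart at 13.5 h. Cotyledon samples include the shoot apical meristem, roots were discarded, and each array holds RNA pooled over technical replicate plates. The labels speak of 3 experiments but tie no replicate number to one. Levels are RMA values on the log2 scale, a change is a difference of group means with its standard error from a fit over all arrays, and a feature was called when its limma p, adjusted over 17504 features, was below 0.05. In such whole-organ samples, a lower share of cells of a type and less RNA per cell cannot be told apart.

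Array medians lay between 4.15 and 4.55, and no arrays held identical values. The ethylene-induced ARL rose by 2.31 to 4.53 and RTE1 by 0.77 to 1.92 in the 6 ethylene comparisons, and the shade marker IAA29 rose in 5 of 6 shade comparisons, while in hypocotyls at 25.5 h of shade it did not pass. The 4 measured stomatal genes were lower in control hypocotyl than in cotyledon at each time, with changes from -3.67 to -2.08. The photosynthesis genes RCA and PRK were lower in control hypocotyl at 1.5 h (-0.56 ± 0.09 and -0.69 ± 0.20). RCA also passed at 13.5 h (-0.24 ± 0.09) but not at 25.5 h (-0.16 ± 0.09, adjusted p = 0.177). PRK did not pass at 13.5 or 25.5 h (-0.26 and -0.14, adjusted p = 0.364 and 0.65). The 4 measured light-harvesting genes averaged 9.39, 8.67 and 9.51 in control hypocotyl and 9.74, 8.69 and 9.70 in control cotyledon at the 3 harvests. CLV3, the only measured gene of 7 shoot meristem markers, lay at 1.62 to 2.27 in all groups of both organs. That is near the bottom of the array's range, so its differences say little about where meristem was sampled. It was lower in hypocotyl by 0.12 to 0.65 in all 9 comparisons of the organs, of which only that under shade at 13.5 h passed (-0.65 ± 0.17, adjusted p = 0.00317). The root hair genes EXPA7 and EXPA18 averaged 5.78 to 7.05 in hypocotyls at 1.5 h in all treatments and at most 4.28 in the other groups. The part of this root hair difference in results that use hypocotyls at 1.5 h was not tested. In 7 arrays the 2 lectin genes AT1G52050 and AT1G52060 averaged 4.34 to 8.18, against at most 3.67 elsewhere. These arrays are control replicates 1 and 3 and ethylene replicate 3 of hypocotyl at 1.5 h, control replicates 1 and 3 and ethylene replicate 1 of hypocotyl at 13.5 h, and shade replicate 3 of cotyledon at 13.5 h. What this difference did to the results was not tested beyond leaving those arrays out.

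The 3 genes differed in what moved them. PORB spanned 5.67 on the log2 scale between its highest and lowest group means (51.0-fold), GSA1 2.29 (4.89-fold) and CHLM 1.83 (3.55-fold). The lowest PORB group, control hypocotyl at 25.5 h, averaged 4.61, close to the array medians. For PORB, harvest time took 51.6% of the sum of squares over the arrays, organ 29.4% and the combination of organ and time 10.9%, while treatment took 3.33%. GSA1 had a like division, with 48.5% for time, 37.2% for organ and 1.13% for treatment. CHLM instead followed the organ, which took 74.9%, with 8.02% for treatment and 2.65% for time. Replicates accounted for 2.78% to 3.27% in the 3 genes, against a median of 31.4% over all features tested. The mean levels of PORB, CHLM and GSA1 lay above those of 93.6%, 98.9% and 94.8% of the features with exactly 1 gene. Of the 17504 features tested, 10399 reached a mean of at least 4.13 in at least 1 group. Shares over equally bright features are not given, here or for the calls below.

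**Figure D1:**
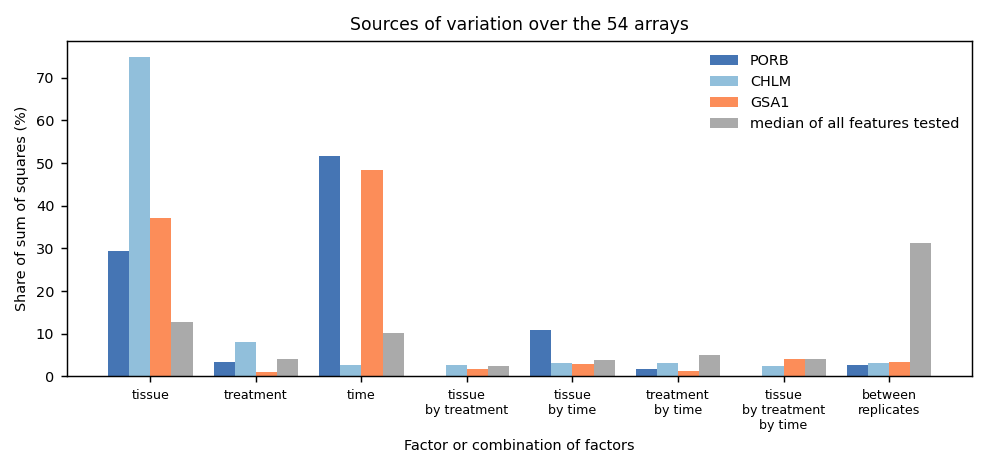
Share of each gene's sum of squares over the 54 arrays (vertical axis, %) taken by organ, treatment, time, their combinations and the spread between replicates; coloured bars are the 3 genes and grey bars the median of all features tested. Time leads for PORB (51.6%) and GSA1 (48.5%), organ leads for CHLM (74.9%), and the main effect of treatment is at most 8.02%.

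The levels themselves were as follows for PORB in control seedlings. Hypocotyl arrays read 6.93, 6.80 and 6.74 at 1.5 h, 9.42, 9.53 and 9.88 at 13.5 h, and 4.55, 4.33 and 4.96 at 25.5 h. Cotyledon arrays read 9.57, 9.91 and 9.62 at 1.5 h, 9.76, 9.59 and 10.11 at 13.5 h, and 7.40, 7.19 and 7.0 at 25.5 h. The hypocotyl was thus low at both outer harvests and reached the cotyledon's range only in the dark, while the cotyledon was high at the first 2 harvests and low at the last.

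**Figure D2:**
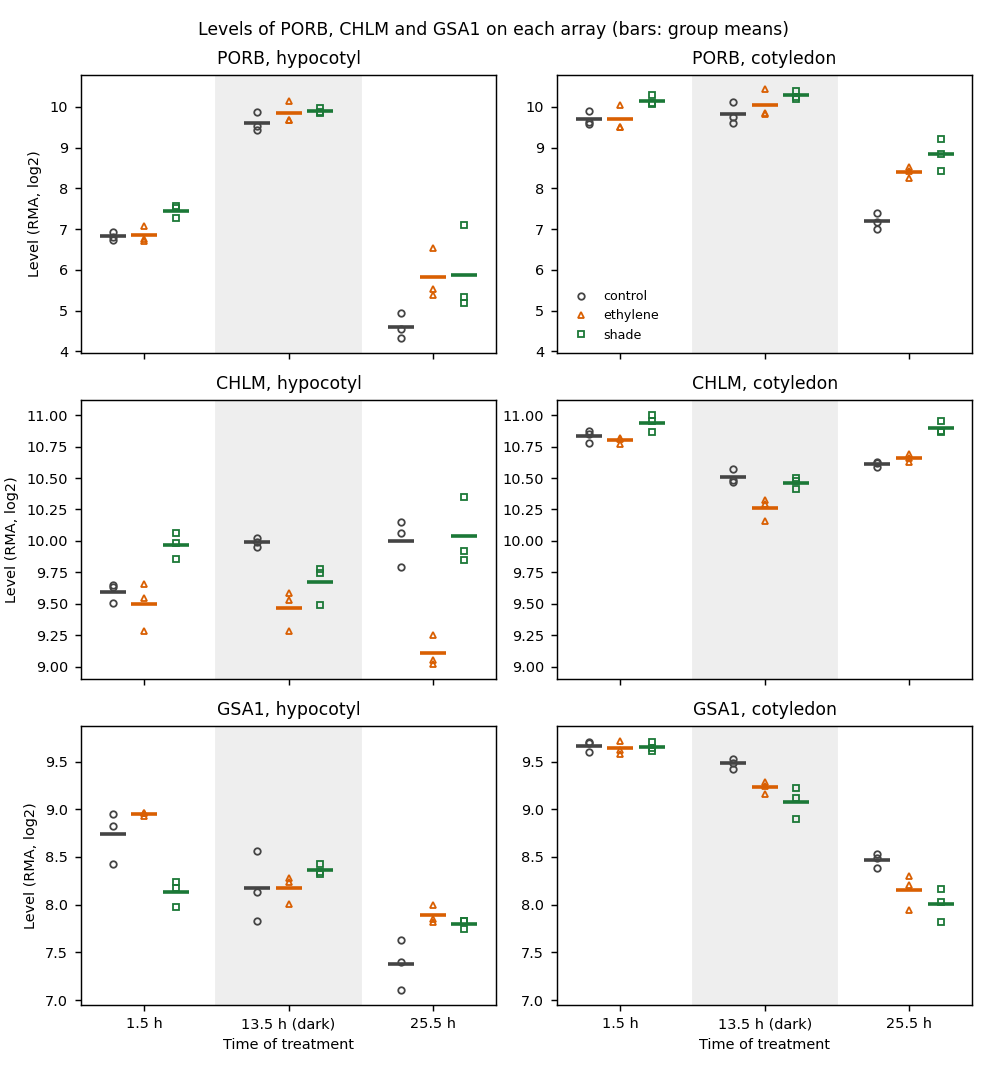
Levels (vertical axis, RMA log2) of PORB, CHLM and GSA1 on every array, by organ and by time of treatment (horizontal axis), with symbols for control, ethylene and shade, bars for group means and grey shading for the dark harvest. In hypocotyls PORB lies between 9.42 and 10.16 at 13.5 h and at most at 7.57 at the other harvests, CHLM is lowest under ethylene at 25.5 h (9.02 to 9.25), and GSA1 is lowest in control at 25.5 h (7.11 to 7.63).

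Over time, 40 of the 54 tests on the 3 genes were called, or 74.1%, where the mean over the same 18 comparisons was 21.7% of all features. The 3 genes were chosen with earlier results of these data known. Such shares therefore describe them and do not test for an excess of calls, here or below. In control hypocotyl the share of all features called was 31.2% for 13.5 against 1.5 h, 22.2% for 25.5 against 13.5 h and 31.9% for 25.5 against 1.5 h. Ethylene hypocotyl gave 26.6%, 19.9% and 24.7% for the same spans, and shade hypocotyl 21.7%, 18.9% and 17.2%. In control cotyledon these shares were 18.4%, 27.5% and 17%, under ethylene 17.6%, 23.6% and 12.9%, and under shade 16.5%, 23.5% and 19.0%. GSA1 was called in 14 of its 18 tests, each of them a fall. PORB was called in 15 and CHLM in 11, in both directions.

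PORB rose in the hypocotyl from 1.5 to 13.5 h, by 2.78 ± 0.28 in control (6.89-fold, adjusted p = 2.31e-10), 2.99 ± 0.28 under ethylene and 2.44 ± 0.28 under shade. It then fell by 5.00 ± 0.28 in control between 13.5 and 25.5 h, or 32.0-fold (adjusted p = 9.94e-18). The same fall was 4.03 under ethylene (16.3-fold) and 4.02 under shade (16.2-fold), each ± 0.28. In cotyledons the first span gave 0.12, 0.35 and 0.13 in control, ethylene and shade, none of which passed. From 13.5 to 25.5 h cotyledon PORB fell by 2.63 in control, 1.64 under ethylene and 1.45 under shade. At the same hour a day later, 25.5 against 1.5 h, cotyledon control was lower by 2.51 ± 0.28 (5.69-fold) and hypocotyl control by 2.22 ± 0.28 (4.65-fold). The daily difference was 1.29 and 1.32 in ethylene and shade cotyledons, and 1.04 and 1.58 in ethylene and shade hypocotyls, all of them falls that passed. Fitted on the arrays of the comparison only, the shade hypocotyl fall did not pass (adjusted p = 0.0633). Without ethylene replicate 1 at 25.5 h the hypocotyl value under ethylene was -0.82 (adjusted p = 0.0582). The median of all features moved by -0.11 in control hypocotyl and -0.12 in ethylene hypocotyl over that span.

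CHLM moved little over time, and in different ways in the organs. In control hypocotyls it read 9.51, 9.65 and 9.64 at 1.5 h, 10.02, 9.95 and 9.99 at 13.5 h, and 10.06, 9.79 and 10.15 at 25.5 h. In control cotyledons it read 10.87, 10.78 and 10.85, then 10.57, 10.49 and 10.47, then 10.59, 10.63 and 10.62. The control hypocotyl was thus lowest at the first harvest and the control cotyledon highest. The hypocotyl rise from 1.5 to 13.5 h was 0.39 ± 0.11 (adjusted p = 0.00434), where the median of all features moved by -0.10, and was 0.30 (adjusted p = 0.371) without the 7 arrays high in lectins. The cotyledon fall over that span was 0.33 ± 0.11 (adjusted p = 0.028), and the call was lost when any of 4 of its 6 arrays was left out, the highest adjusted p being 0.0911. Under ethylene and shade the cotyledons showed a fall from 1.5 to 13.5 h (0.54 and 0.48) and a rise from 13.5 to 25.5 h (0.40 and 0.43), all ± 0.11. With only the arrays of each comparison fitted, the rises did not pass (adjusted p = 0.0507 and 0.0659). By 25.5 h control hypocotyl CHLM was 0.40 ± 0.11 above its level at 1.5 h (adjusted p = 0.00322), where the median of all features moved by -0.11. That call was lost without the lectin-high arrays (0.35, adjusted p = 0.146) and when only the arrays of the comparison were fitted (adjusted p = 0.0668). Ethylene hypocotyls instead fell from 13.5 to 25.5 h by 0.36 ± 0.11 (adjusted p = 0.0137), a call lost without any of 4 of the 6 arrays (highest adjusted p 0.0845). Shade hypocotyls fell by 0.30 and then rose by 0.37, each ± 0.11. These calls were lost without any of 3 and any of 2 of the 6 arrays, with highest adjusted p of 0.268 and 0.199.

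In control seedlings GSA1 declined from the first to the last harvest in both organs. Control hypocotyls read 8.43, 8.83 and 8.95 at 1.5 h, 8.14, 7.83 and 8.56 at 13.5 h, and 7.40, 7.11 and 7.63 at 25.5 h. Control cotyledons read 9.69, 9.71 and 9.60, then 9.42, 9.49 and 9.53, then 8.53, 8.49 and 8.38. In both organs the last harvest lay below the first 2 without overlap. Between 1.5 and 25.5 h GSA1 fell by 1.36 ± 0.13 in control hypocotyl (2.56-fold, adjusted p = 1.85e-10) and by 1.2 ± 0.13 in control cotyledon (2.29-fold, adjusted p = 7.57e-09). The fall was 1.49 in ethylene and 1.65 in shade cotyledons, and 1.06 in ethylene hypocotyls, each ± 0.13. In shade hypocotyls the change was -0.33 ± 0.13 and did not pass (adjusted p = 0.0824), with arrays that were already low at 1.5 h. Their means were 8.13, 8.36 and 7.80 at the 3 harvests. The step from 1.5 to 13.5 h did not pass in control cotyledon or shade hypocotyl. The step from 13.5 to 25.5 h did not pass in ethylene hypocotyl.

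The organ difference is the second feature of these genes, although it is not particular to them. Of 27 tests of hypocotyl against cotyledon within a treatment and harvest, 22 were called, or 81.5%, all of them lower in hypocotyl, where the mean over the 9 comparisons was 34.1% of all features. The share of all features called was 42.6%, 30.5% and 30.5% in control at 1.5, 13.5 and 25.5 h. It was 42.7%, 35.0% and 34.6% under ethylene and 35.5%, 28.7% and 27.0% under shade. The tests that did not pass were those of PORB at 13.5 h in each treatment and of GSA1 at 25.5 h under ethylene and shade. Group means of HEME1, another pathway gene, were 7.44 to 8.50 in hypocotyl and 9.39 to 10.17 in cotyledon. Those of HEME2 were 7.70 to 9.04 and 9.05 to 10.20. The ranges of HEMA2, HEMA3, HEMB2, HEMF2 and CHLP overlapped between the organs. NOL and SGRL, genes of chlorophyll turnover, were called lower in hypocotyl in each comparison of the organs. EIN3 was called higher in hypocotyl in each.

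**Figure D3:**
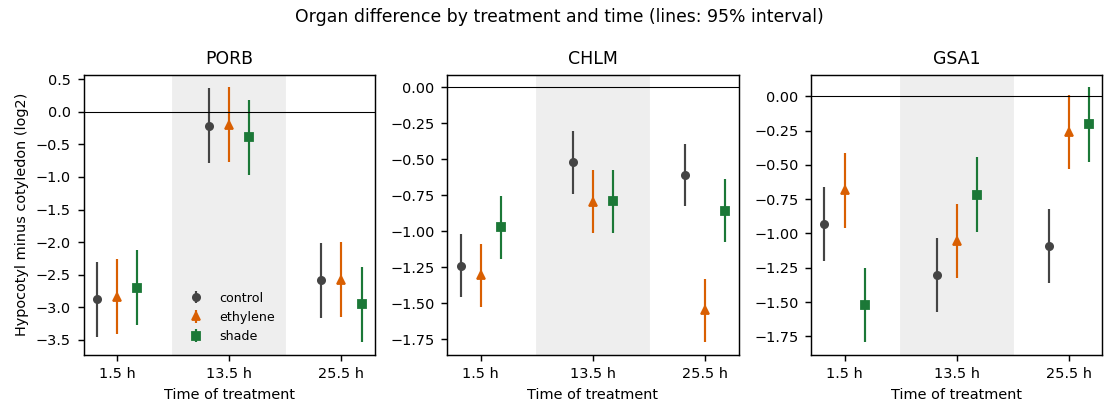
Hypocotyl minus cotyledon (vertical axis, log2 with 95% interval) for the 3 genes by time of treatment (horizontal axis) and treatment (symbols); grey shading marks the dark harvest. The PORB difference is near -3 at the outer harvests and spans 0 at 13.5 h, the CHLM difference is widest under ethylene at 25.5 h (-1.55), and the GSA1 difference at 25.5 h is -1.09 in control against -0.26 and -0.21 in the treated groups.

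PORB was lower in control hypocotyl than in control cotyledon by 2.88 ± 0.28 at 1.5 h (7.34-fold, adjusted p = 4.22e-11) and by 2.58 ± 0.28 at 25.5 h (6.0-fold, adjusted p = 1.01e-09). At 13.5 h the difference was -0.21, with a 95% interval of -0.79 to 0.37. Ethylene and shade gave nearly the same picture, with -2.84 and -2.70 at 1.5 h, -0.20 and -0.39 at 13.5 h, and -2.58 and -2.96 at 25.5 h.

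CHLM was lower in hypocotyl in all 9 comparisons. In control the difference was -1.24 ± 0.11 at 1.5 h, -0.52 ± 0.11 at 13.5 h and -0.61 ± 0.11 at 25.5 h. Under ethylene it was -1.3, -0.80 and -1.55, and under shade -0.97, -0.79 and -0.86. The ranges of the 2 organs did not overlap in any of these groups.

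GSA1 was lower in control hypocotyl by 0.93, 1.3 and 1.09, each ± 0.13, at the 3 harvests. The difference was widest under shade at 1.5 h (-1.52 ± 0.13, 2.87-fold) and was not called at 25.5 h under ethylene (-0.26 ± 0.13, adjusted p = 0.137) or shade (-0.21 ± 0.13, adjusted p = 0.291). After centring on reference genes, the ethylene difference at 25.5 h was -0.35 and was called (adjusted p = 0.0406).

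The next question was which of these levels ethylene or shade changed. Of the 36 tests of treated against control arrays of the same organ and harvest, 12 were called, or 33.3%, where the mean over the 12 comparisons was 8.2% of all features. Each gene was called in 4 of its 12 tests. Of the calls, 9 were in hypocotyl and 3 in cotyledon, and 8 were at 25.5 h. Ethylene and shade were compared with the same control arrays. The share of all features called in hypocotyl was 3.03%, 12% and 22.9% under ethylene at 1.5, 13.5 and 25.5 h, and 12.4%, 10.8% and 15.3% under shade. In cotyledon it was 1.01%, 1.61% and 5.20% under ethylene and 0.526%, 4.54% and 8.81% under shade. Fitting only the 6 arrays of a comparison, which leaves few degrees of freedom, gave calls in 5 of the 36 tests, namely PORB at 25.5 h under ethylene in both organs and under shade in cotyledon, CHLM under ethylene in hypocotyl at 25.5 h, and PORB under shade in hypocotyl at 1.5 h.

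**Figure D4:**
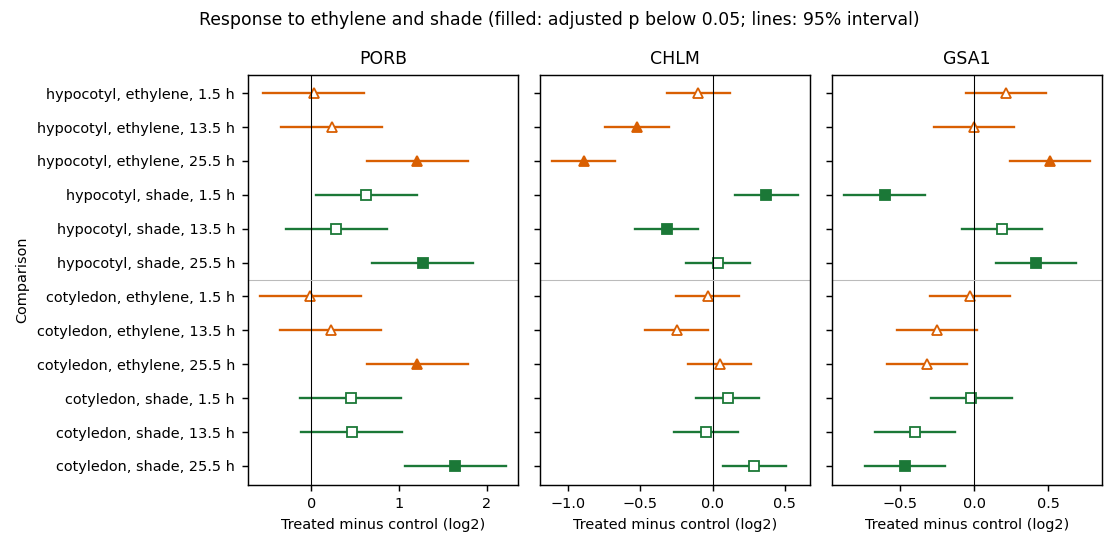
Change of the 3 genes in each of the 12 comparisons of treated against control arrays (horizontal axis, log2 with 95% interval); filled symbols passed an adjusted p below 0.05. PORB is filled in the 4 comparisons at 25.5 h (1.21 to 1.64), CHLM in 4 hypocotyl comparisons (from -0.89 to 0.37), and GSA1 in 3 hypocotyl comparisons and in shade cotyledons at 25.5 h (-0.47).

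PORB was higher at 25.5 h in both organs under both treatments, and in none of the other 8 comparisons did it pass. Ethylene hypocotyls read 5.39, 5.53 and 6.54 against 4.55, 4.33 and 4.96 in control, and ethylene cotyledons 8.25, 8.53 and 8.42 against 7.40, 7.19 and 7.0. Shade cotyledons read 9.20, 8.44 and 8.86. Shade hypocotyls read 7.10, 5.35 and 5.18, with replicate 1 standing apart. All treated arrays lay above all control arrays of their organ.

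The rise was 1.21 ± 0.28 in ethylene hypocotyl (2.31-fold, adjusted p = 0.001) and 1.21 ± 0.28 in ethylene cotyledon (2.31-fold, adjusted p = 0.0054). In shade it was 1.27 ± 0.28 in hypocotyl (2.41-fold, adjusted p = 0.00103) and 1.64 ± 0.28 in cotyledon (3.12-fold, adjusted p = 9.59e-05). Without replicate 1 of shade hypocotyl that rise was 0.66 and did not pass (adjusted p = 0.0568). The SD between replicates was 1.06 in shade hypocotyl and 0.62 in ethylene hypocotyl, against 0.14 to 0.38 in the 3 cotyledon groups. The treated arrays at 25.5 h still lay below the arrays of their own treatment and organ at 13.5 h. Control PORB fell over the same period as well.

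At the earlier harvests PORB in shade read 7.57, 7.27 and 7.52 in hypocotyl at 1.5 h, all above the control arrays, but the change of 0.63 ± 0.28 did not pass (adjusted p = 0.149). Shade cotyledons at 1.5 h read 10.07, 10.10 and 10.29, again above control, with a change of 0.45 ± 0.28 (adjusted p = 0.738). At 13.5 h the changes were 0.23 and 0.28 in hypocotyl and 0.22 and 0.46 in cotyledon under ethylene and shade. Under ethylene at 1.5 h PORB read 6.72, 6.77 and 7.08 in hypocotyl and 9.51, 9.51 and 10.06 in cotyledon, overlapping with control in both organs. The changes were 0.03 and -0.01, with 95% intervals of -0.55 to 0.60 and -0.58 to 0.57.

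CHLM was lower under ethylene in the hypocotyl from the dark harvest on. At 13.5 h the ethylene arrays read 9.53, 9.28 and 9.58 against 10.02, 9.95 and 9.99 in control, and at 25.5 h 9.06, 9.02 and 9.25 against 10.06, 9.79 and 10.15. Neither pair of groups overlapped, and the 25.5 h values are the lowest of CHLM in the series. The fall was 0.52 ± 0.11 at 13.5 h (1.44-fold, adjusted p = 4.96e-04) and 0.89 ± 0.11 at 25.5 h (1.85-fold, adjusted p = 1.1e-08). With the lectin-high arrays removed, only 1 control and 2 ethylene arrays remain at 13.5 h, and the change there was -0.52 with an adjusted p of 0.0538. At 1.5 h ethylene arrays read 9.66, 9.29 and 9.55, which overlaps control, and the change was -0.10 ± 0.11.

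Ethylene cotyledons showed no called fall of CHLM at any harvest. They read 10.82, 10.77 and 10.81 at 1.5 h, 10.33, 10.16 and 10.30 at 13.5 h, and 10.69, 10.63 and 10.66 at 25.5 h. At 25.5 h the change against control was 0.05, with a 95% interval of -0.17 to 0.27. At 13.5 h all 3 ethylene arrays lay below control, but the change of -0.25 ± 0.11 did not pass (adjusted p = 0.346). The difference between the organs' responses at 25.5 h was itself tested and came to -0.94 ± 0.15 (adjusted p = 1.06e-05). At the earlier harvests this difference was not called.

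Under shade, hypocotyl CHLM read 9.98, 9.86 and 10.06 at 1.5 h, 9.77, 9.49 and 9.75 at 13.5 h, and 10.35, 9.85 and 9.92 at 25.5 h. The first set lies above the control arrays, the second below them and the third overlaps them. The changes were 0.37 ± 0.11 (adjusted p = 0.0183), -0.32 ± 0.11 (adjusted p = 0.0495) and 0.04 ± 0.11. The early rise was lost without control replicate 1 (0.33, adjusted p = 0.0884), shade replicate 1 (0.36, adjusted p = 0.053) or shade replicate 3 (0.32, adjusted p = 0.0908), and without the arrays high in lectins it was 0.32 (adjusted p = 0.377). The median of all features moved by -0.12 in that comparison. The fall at 13.5 h was lost without any of its 6 arrays (-0.37 to -0.23, adjusted p from 0.0527 to 0.283). Shade cotyledons read 11, 10.87 and 10.95, then 10.50, 10.41 and 10.48, then 10.95, 10.86 and 10.87. The last set lay above control (10.59 to 10.63) with a change of 0.29 ± 0.11 that did not pass (adjusted p = 0.0927), and passed after quantile normalization within each organ (0.37, adjusted p = 0.0173).

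GSA1 moved in opposite directions in the organs at 25.5 h. Hypocotyl arrays read 8.0, 7.82 and 7.85 under ethylene and 7.82, 7.74 and 7.83 under shade, all above the control range of 7.11 to 7.63. Cotyledon arrays read 7.94, 8.2 and 8.30 under ethylene and 7.82, 8.02 and 8.16 under shade, all below the control range of 8.38 to 8.53. In hypocotyl GSA1 rose by 0.51 ± 0.13 under ethylene (1.43-fold, adjusted p = 0.00311) and by 0.42 ± 0.13 under shade (1.34-fold, adjusted p = 0.0255). In cotyledon it fell under shade by 0.47 ± 0.13 (1.38-fold, adjusted p = 0.0197), while the ethylene change of -0.32 ± 0.13 did not pass (adjusted p = 0.193).

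Control replicate 2 was the lowest hypocotyl array at that harvest. Without it the ethylene change was 0.38 (adjusted p = 0.0595) and the shade change 0.28 (adjusted p = 0.233). The shade call in hypocotyl was also lost without control replicate 1 (0.43, adjusted p = 0.058), shade replicate 1 (0.41, adjusted p = 0.0652) or shade replicate 3 (0.40, adjusted p = 0.0786), and after centring on reference genes (0.32, adjusted p = 0.127). The cotyledon shade call was lost without control replicate 1 (-0.44, adjusted p = 0.0832), control replicate 2 (-0.46, adjusted p = 0.063) or shade replicate 1 (-0.38, adjusted p = 0.122).

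At 1.5 h of shade hypocotyl GSA1 read 8.18, 7.98 and 8.24, below the control arrays at 8.43 to 8.95. The fall was 0.60 ± 0.13 (1.52-fold, adjusted p = 0.00201), where the median of all features moved by -0.12. It kept its call with any 1 of its 6 arrays left out and without the lectin-high arrays, but not when only those 6 arrays were fitted (adjusted p = 0.079). Ethylene hypocotyls at 1.5 h read 8.93, 8.96 and 8.96, at the top of the control range, and the change of 0.22 ± 0.13 did not pass. At 13.5 h the hypocotyl arrays read 8.01, 8.23 and 8.28 under ethylene and 8.35, 8.32 and 8.42 under shade, inside a wide control range of 7.83 to 8.56. Leaving out the arrays high in lectins left the lowest of those control arrays alone, and the shade change was then 0.53 (adjusted p = 0.0237) in place of 0.19.

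In cotyledons GSA1 read 9.58, 9.62 and 9.72 under ethylene and 9.61, 9.64 and 9.70 under shade at 1.5 h, overlapping control. At 13.5 h the arrays read 9.16, 9.25 and 9.28 under ethylene and 8.90, 9.12 and 9.22 under shade, all below the control range of 9.42 to 9.53. The changes there were -0.25 ± 0.13 and -0.40 ± 0.13, and neither passed (adjusted p = 0.502 and 0.0784). The shade value passed with array quality weights (-0.45, adjusted p = 0.0239), without dim features (adjusted p = 0.0463) and without the arrays high in lectins (-0.47, adjusted p = 0.0184).

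Whether a response differed between organs was tested for each treatment and harvest. Of these 18 tests on the 3 genes 3 were called, all at 25.5 h. The share of all features called was 0.137%, 3.12% and 14.8% for ethylene and 2.16%, 3.91% and 5.63% for shade at 1.5, 13.5 and 25.5 h. Beside CHLM under ethylene, the GSA1 response in hypocotyl exceeded that in cotyledon by 0.83 ± 0.19 under ethylene (adjusted p = 0.00124) and by 0.89 ± 0.19 under shade (adjusted p = 0.00209). For PORB the difference was 0.00 with a 95% interval of -0.81 to 0.82 under ethylene, and -0.37 with an interval of -1.19 to 0.44 under shade.

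Whether a response at a later harvest differed from that at 1.5 h was tested as well, and 5 of 24 such tests were called (20.8%), all in hypocotyl, where the mean over these comparisons was 4.6% of all features. The share of all features called for 25.5 against 1.5 h was 14% for the ethylene response and 8.99% for the shade response in hypocotyl, and 0.840% and 0.131% in cotyledon. For the shade response in hypocotyl at 13.5 h it was 8.19%. PORB was called once, with an ethylene response in hypocotyl that was 1.18 ± 0.40 higher at 25.5 h than at 1.5 h (adjusted p = 0.042). That call was lost when any of 8 of the 12 arrays was left out, and in other settings given in the closing section.

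A comparison of shade with ethylene arrays leaves the control out. Of 18 such tests 3 were called, or 16.7%, near the mean of 11.8% of all features. The share of all features called was 16.8%, 14.7% and 20.0% in hypocotyl and 2.21%, 4.80% and 12.4% in cotyledon at the 3 harvests. CHLM was higher under shade in hypocotyl at 1.5 h (0.47 ± 0.11, adjusted p = 0.00163) and at 25.5 h (0.93 ± 0.11, 1.90-fold, adjusted p = 6.64e-09). GSA1 was lower under shade in hypocotyl at 1.5 h by 0.82 ± 0.13 (1.77-fold, adjusted p = 1.61e-05), where the median of all features was -0.12. PORB had no call in its 6 tests. At 25.5 h its difference was 0.06 in hypocotyl, with a 95% interval of -0.52 to 0.63, and 0.43 in cotyledon, with an interval of -0.14 to 1.01.

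Beyond the 3 genes, 7 of the other 30 genes on a list of tetrapyrrole and chlorophyll synthesis had a named feature. In the 12 comparisons of treated with control arrays these 7 genes were called 3 times in 84 tests (3.6%), below the mean of 8.2% of all features. Without the lectin-high arrays 1 call was made. HEME1, a uroporphyrinogen decarboxylase, fell in hypocotyl at 13.5 h by 0.49 ± 0.12 under ethylene and by 0.44 ± 0.12 under shade. CHLP, the geranylgeranyl reductase that prepares the phytol tail, rose by 0.43 ± 0.12 in shade cotyledon at 13.5 h. HEMA2, HEMA3, HEMB2, HEME2 and HEMF2 did not pass in any of the 12 comparisons, and HEMA3 and HEMB2 had group means of at most 2.64, near the bottom of the array's range. The median change of the 7 genes lay between -0.32 and 0.11, where that of all features lay between -0.12 and 0.02. At 25.5 h, when PORB was raised, it was -0.14 and 0.01 in ethylene and shade hypocotyl and 0.02 and 0.00 in cotyledon, and none of the 7 was called.

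**Figure D5:**
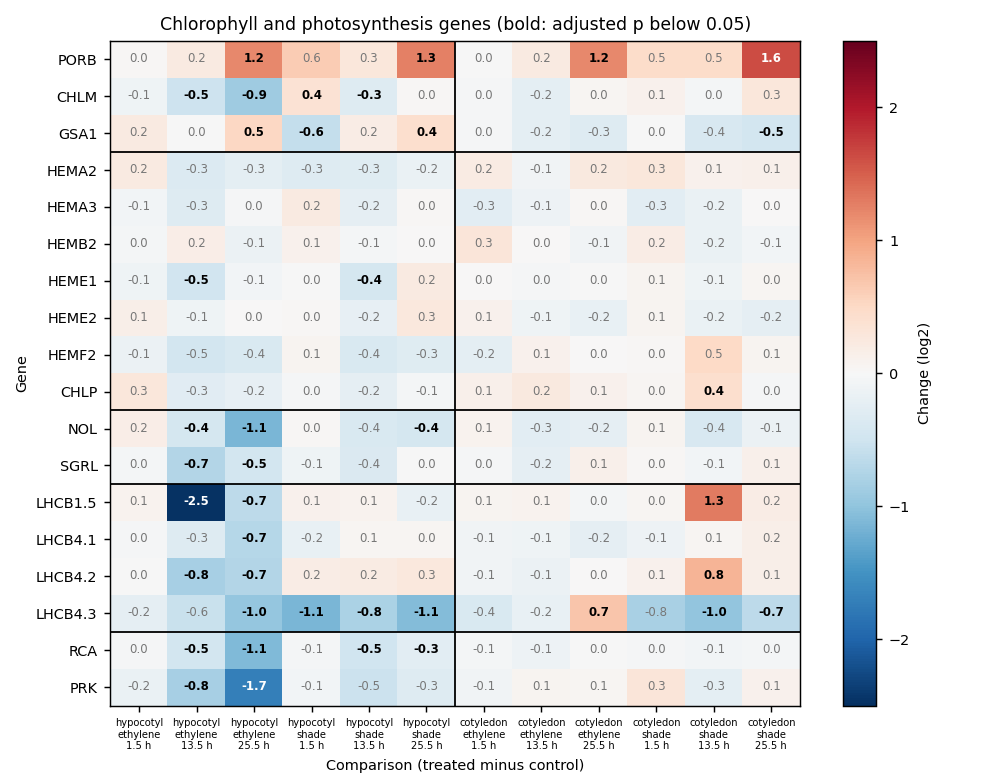
Change (log2, colour and number) of genes of chlorophyll synthesis, chlorophyll breakdown, light harvesting and carbon fixation (rows, from top to bottom, the 3 genes described first) in the 12 comparisons of treated with control arrays (columns); bold numbers passed an adjusted p below 0.05. In the column of ethylene hypocotyl at 25.5 h, CHLM, NOL, SGRL, all 4 LHCB genes, RCA and PRK are lower and PORB and GSA1 are higher.

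Under ethylene in the hypocotyl, other genes of the photosynthetic apparatus were low together with CHLM. All 4 measured genes of 21 chlorophyll-binding light-harvesting proteins fell at 25.5 h, namely LHCB1.5 (-0.66 ± 0.18), LHCB4.1 (-0.71 ± 0.12), LHCB4.2 (-0.73 ± 0.15) and LHCB4.3 (-0.96 ± 0.21), and at 13.5 h LHCB1.5 (-2.47 ± 0.18) and LHCB4.2 (-0.82 ± 0.15) did. Of all features 22.9% were called in either direction at 25.5 h and 12% at 13.5 h, and these shares stand beside the counts of turnover and mesophyll genes too. NOL, a chlorophyll b reductase, fell by 0.44 ± 0.13 and 1.13 ± 0.13 at 13.5 and 25.5 h, and SGRL, a relative of the stay-green magnesium dechelatases, by 0.73 ± 0.13 and 0.45 ± 0.13. These are 2 of 11 genes of chlorophyll turnover with a named feature.

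The 2 measured mesophyll markers of 12 also fell. RCA, the Rubisco activase, fell by 0.47 ± 0.09 and 1.10 ± 0.09 and PRK, phosphoribulokinase, by 0.82 ± 0.20 and 1.71 ± 0.20 at those harvests. Their mean level was 11.04 to 11.16 on control arrays and 9.48 to 9.82 on ethylene arrays of hypocotyl at 25.5 h. In ethylene cotyledons at 25.5 h it was 11.23 to 11.30 against 11.14 to 11.34 in control, and neither gene was called. The part of these markers in the CHLM result was not tested. PORB and GSA1 rose on the same hypocotyl arrays.

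Under shade these groups gave fewer calls at 25.5 h in hypocotyl, where 15.3% of all features were called. In hypocotyl at 25.5 h LHCB4.3 (-1.09 ± 0.21), NOL (-0.45 ± 0.13) and RCA (-0.26 ± 0.09) fell, and the other 3 LHCB genes, SGRL and PRK did not pass. RCA was also lower in shade hypocotyl at 13.5 h (-0.51 ± 0.09, adjusted p = 4.71e-05), where 10.8% of all features were called. PRK, NOL and SGRL did not pass there (adjusted p = 0.0742, 0.0599 and 0.0643). In shade cotyledon at 13.5 h LHCB1.5 (1.31 ± 0.18) and LHCB4.2 (0.84 ± 0.15) rose and LHCB4.3 fell (-0.98 ± 0.21).

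Of 18 regulators of greening, HYH, PIF7 and EIN3 had a named feature. HYH, a relative of the light-signalling factor HY5, fell in shade hypocotyl at each harvest (-0.65, -1.27 and -0.55) and in shade cotyledon at 25.5 h (-0.55), each ± 0.15, and rose in ethylene cotyledon at 13.5 h (0.62). PIF7, a phytochrome-interacting factor, fell in ethylene hypocotyl at 25.5 h by 1.42 ± 0.25. EIN3 rose in shade cotyledon at 25.5 h (0.55 ± 0.12). No named feature of the haem and bilin branch or of the early light-induced proteins was found.

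The likeness of patterns was described by Pearson's r over the 18 group means, with no test. The points share the control arrays, the organs and the harvests, and the 8750 features compared are those with group means that span at least 1 on the log2 scale. Among themselves, the 3 genes gave 0.46 for PORB with CHLM, 0.65 for PORB with GSA1 and 0.48 for CHLM with GSA1. Within the 9 hypocotyl groups these were -0.05, 0.40 and -0.36, and within the 9 cotyledon groups -0.11, 0.72 and 0.00.

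PORB was most like BGLU44, a beta-glucosidase gene (r = 0.94), followed by AT5G24060, AT5G24490, AGL26 and AT1G76140 (0.90 to 0.91). Within cotyledon groups BGLU44 held at 0.94 and the others fell to between 0.73 and 0.78. All were at 0.89 to 0.95 within hypocotyl groups. PORB was least like MYC4, a transcription factor of the jasmonate response (r = -0.95, and -0.96 and -0.94 within hypocotyl and cotyledon), and AT4G29110 (-0.94). CHLM was most like AT1G54820 (0.96), AT2G43560, FUG1, AT2G04790 and AT1G32160 (all 0.95 or above), and least like AT3G04010 and AT5G04170 (both -0.96). Within cotyledon groups the CHLM values fell to between 0.50 and 0.86. GSA1 was most like AT4G00810 (0.95), AT3G52960, AT2G02590, FRO1 at AT5G67590 and AT2G21640 (0.94 to 0.95), and least like ATMPK8 (-0.91) and AT3G53100 (-0.90). Its 5 most similar genes held at 0.96 to 0.98 within cotyledon and at 0.80 to 0.90 within hypocotyl.

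Ordered by group mean, PORB ran from shade cotyledon at 13.5 h (10.28 ± 0.10, SD, n = 3) to control hypocotyl at 25.5 h (4.61 ± 0.32). Of its 17 neighbouring pairs 14 overlapped, and the 3 gaps lay below control hypocotyl at 13.5 h, below ethylene cotyledon at 25.5 h and above control hypocotyl at 25.5 h. CHLM ran from shade cotyledon at 1.5 h (10.94 ± 0.07) to ethylene hypocotyl at 25.5 h (9.11 ± 0.13), with all 9 cotyledon groups ahead of all 9 hypocotyl groups and 11 of 17 neighbouring pairs overlapping. GSA1 ran from control cotyledon at 1.5 h (9.67 ± 0.06) to control hypocotyl at 25.5 h (7.38 ± 0.26), with 14 of 17 pairs overlapping.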

How the data were processed

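RNA of 54 seedling samples was measured on Affymetrix Arabidopsis Gene 1.1 ST arrays. The deposited values are log2 levels made by the authors with RMA in Affymetrix Expression Console 1.4, and Transcriptome Analysis Console 3.0 is named with no role, per the submitters' processing notes. RMA corrects background, equalizes distributions and summarizes probes, so levels of different features are not set against each other. No source used here gives the build, and no coordinates are printed.

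Of 38408 features, 17504 carry a gene, and 16746 carry exactly 1. The 3 genes and all lists were chosen with earlier results of these data known. A gene with several features is represented by the brightest. Genes named beyond the 3 are list genes called in the comparison described, the treatment checks and, per gene, the 5 most and 2 least similar features.

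All arrays entered a limma fit (lmFit and eBayes) in which every one of the 18 groups had its own mean. Versions were limma 3.58.1 and R 4.3.3. The 59 contrasts were each adjusted by Benjamini-Hochberg over 17504 features. Python 3.11.15 made the tables. On simulated data for hypocotyl shade at 25.5 h, over 17504 features, 31.3%, 76.1% and 98.5% of changes of 0.5, 1 and 2 were recovered, with 7 false calls. Only 67, 67 and 66 features were changed at those sizes, with independent normal noise and no other group differences. The real comparison called 2678 features (15.3%), so these rates need not hold there. The number of arrays limits the precision, and p-values measure the spread between these samples, which may be partly technical. Replicate numbers were not taken to pair the samples. Over all features, same-numbered arrays of treated and control groups deviated together in 1 of 12 comparisons. That check covered neither single genes nor the pairing of organs. CHLM was lowest in replicate 2 of every ethylene and shade group. GSA1 was highest in replicate 3 of every shade group and of most control and ethylene groups. PORB was highest in replicate 3 of every ethylene hypocotyl group and of some others. The main fit does not model such differences between replicate numbers. Alternatives were a replicate block, other normalizations, other feature sets, array weights, arrays left out and fits on the compared arrays; the closing section gives them.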

Additional observations from a re-analysis of the deposited data

Results flagged for a closer look

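In 8 of 42 tests the response of a gene differed between organs or between harvests. These are 3 of 18 tests between organs and 5 of 24 between harvests, where on average 5.0% and 4.6% of all features were called. For the difference between organs at 25.5 h, the values were -0.94 for CHLM under ethylene (adjusted p = 1.06e-05), 0.83 for GSA1 under ethylene (adjusted p = 0.00124) and 0.89 for GSA1 under shade (adjusted p = 0.00209), each hypocotyl minus cotyledon on the log2 scale.

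The other 5 compare the response at a later harvest with that at 1.5 h, all in hypocotyl. For PORB the ethylene response was 1.18 higher at 25.5 h (adjusted p = 0.042). In cotyledon the same difference was 1.22 under ethylene and 1.19 under shade, but neither passed (adjusted p = 0.172 and 0.289). The CHLM ethylene response at 25.5 h differed by -0.79 (adjusted p = 1.65e-04), and the CHLM shade response at 13.5 h by -0.69 (adjusted p = 0.00283). The GSA1 shade response was higher by 0.79 at 13.5 h (adjusted p = 0.00583) and by 1.02 at 25.5 h (adjusted p = 2.95e-04). The median differences of all features were 0.11 for shade at 13.5 h and 0.14 at 25.5 h. The shade results rest on the hypocotyl control at 1.5 h, of which 2 arrays are high in lectins. Without the 7 lectin-high arrays the CHLM difference at 13.5 h was -0.60 (adjusted p = 0.158) and that of GSA1 1.23. The GSA1 difference at 13.5 h was not called when only its own arrays were fitted (adjusted p = 0.127). The PORB difference lost its call when any of 8 of its 12 arrays was left out (0.82 to 1.39, adjusted p from 0.0206 to 0.208). Its call was also lost when adjusted over the whole array (adjusted p = 0.052) and after centring on reference genes (adjusted p = 0.0678). The same held when only its own arrays were fitted (adjusted p = 0.0586) and without the lectin-high arrays.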

How the results depend on the processing

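Values are log2 changes in the order compared. All values that changed sign under another setting were uncalled in both settings. With the replicate number as a block, CHLM in shade cotyledon at 25.5 h (0.29, adjusted p = 0.0413) and GSA1 in shade cotyledon at 13.5 h (-0.40, adjusted p = 0.0417) passed. Same-numbered arrays correlated over 0.1 in 11 of 36 pairs (-0.195 to 0.286), and all 3 pairs did so in 1 of 12 comparisons, shade against control in hypocotyl at 13.5 h, where CHLM remained called with the block (-0.32, adjusted p = 0.0176). The numbers were not taken to pair samples. After quantile normalization within each organ, CHLM in shade cotyledon at 25.5 h was 0.37 and passed. Sign changes there were PORB in ethylene cotyledon at 1.5 h (0.0054), CHLM in shade hypocotyl at 25.5 h (-0.008) and shade cotyledon at 13.5 h (0.0912), and GSA1 in shade cotyledon at 1.5 h (0.0069). CHLM also turned for 13.5 against 1.5 h in ethylene hypocotyl (0.0787) and for 25.5 against 1.5 h in ethylene (0.0957) and shade cotyledon (0.21).

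Centred on 7 reference genes, CHLM in shade hypocotyl at 13.5 h (-0.37, adjusted p = 0.054) and GSA1 at 25.5 h (0.315, adjusted p = 0.127) did not pass. Signs turned for PORB in ethylene hypocotyl at 1.5 h (-0.0115), its cotyledon control change to 13.5 h (-0.0416) and its organ difference in ethylene response at 25.5 h (-0.0132, and -0.0708 with array weights). They also turned for CHLM in shade hypocotyl (-0.0665) and ethylene cotyledon (-0.055) at 25.5 h, shade cotyledon at 13.5 h (0.0049) and ethylene hypocotyl from 1.5 to 13.5 h (0.0262). Adjusted over all 38408 features, CHLM in shade hypocotyl at 13.5 h was -0.32 with adjusted p = 0.0503. GSA1 in shade cotyledon at 13.5 h passed without dim features (-0.40) and with array weights (-0.45). Without the 7 arrays high in lectins, CHLM did not pass in ethylene hypocotyl at 13.5 h (-0.52) or in shade hypocotyl at 1.5 h (0.32) and 13.5 h (-0.28), and GSA1 passed in shade hypocotyl (0.53) and cotyledon (-0.47) at 13.5 h. Signs turned for PORB in ethylene hypocotyl at 1.5 h (-0.0607), PORB in hypocotyl shade against ethylene at 13.5 h (-0.0284) and GSA1 in ethylene hypocotyl at 13.5 h (0.42).

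Fitted on the arrays compared, and so with fewer degrees of freedom, CHLM in ethylene hypocotyl at 13.5 h (-0.52, adjusted p = 0.0781), GSA1 there at 25.5 h (0.51, adjusted p = 0.0536), CHLM in shade hypocotyl at 1.5 h (0.37, adjusted p = 0.112) and 13.5 h (-0.32, adjusted p = 0.302), GSA1 at 1.5 h (-0.60, adjusted p = 0.079) and 25.5 h (0.42, adjusted p = 0.17), PORB at 25.5 h (1.27, adjusted p = 0.138) and GSA1 in shade cotyledon at 25.5 h (-0.47, adjusted p = 0.138) did not pass. PORB in shade hypocotyl at 1.5 h did (0.63, adjusted p = 0.0449). Calls over time were lost 13 times in these fits (adjusted p from 0.0507 to 0.257), 4 times after centring (0.0501 to 0.133), 4 times without the lectin-high arrays (0.0629 to 0.371) and once after quantile normalization (0.0693). In the fits on the compared arrays, calls on the 3 genes numbered 5 in place of 12 for treatments. Calls of organ differences in response were 5 in place of 3 with array weights. Without the lectin-high arrays, only 1 control array of hypocotyl remains at 1.5 h and at 13.5 h. That setting also changed the calls of organ differences in response, of responses compared between harvests and of the other pathway genes. Where a setting does not change the number of arrays or features, the cause was not tested.

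With each array left out in turn, values in hypocotyl ran as follows. PORB ran from -0.0821 to 0.0974 (ethylene, 1.5 h), 0.66 to 1.61 (shade, 25.5 h), -0.0284 to 0.21 and -0.55 to 0.42 (shade against ethylene, 13.5 and 25.5 h). CHLM ran from -0.18 to 0.0057 (ethylene, 1.5 h), 0.32 to 0.42, -0.37 to -0.23 and -0.12 to 0.13 (shade, 3 harvests), -0.0617 to 0.12 (control, 13.5 to 25.5 h), -0.14 to 0.06 (ethylene, 1.5 to 13.5 h) and -0.0845 to 0.17 (shade, 1.5 to 25.5 h). GSA1 ran from -0.18 to 0.19 and 0.38 to 0.64 (ethylene, 13.5 and 25.5 h) and 0.28 to 0.54 (shade, 25.5 h). In cotyledon, PORB ran from -0.19 to 0.0945 (ethylene, 1.5 h) and -0.0263 to 0.23 (control, 1.5 to 13.5 h). GSA1 ran from -0.051 to 0.0021 and -0.55 to -0.38 (shade, 1.5 and 25.5 h) and -0.0181 to 0.0494 (shade against ethylene, 1.5 h). The organ difference in PORB's ethylene response at 25.5 h ran from -0.36 to 0.22.

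Counts of all features called moved by over 1.5 times in some settings. For ethylene against control in hypocotyl at the 3 harvests, 530, 2109 and 4007 features were called. Over the whole array it was 912, 4051 and 7855, and on the compared arrays 230 and 741 at the first 2. For shade in hypocotyl the counts 2179, 1890 and 2678 became 3559, 3535 and 5133 over the whole array and 809, 300 and 1646 on the compared arrays. Without the lectin-high arrays the hypocotyl counts at 1.5 h were 199 for ethylene and 372 for shade. For cotyledon ethylene 176, 282 and 910 became 314, 536 and 1616 over the whole array and 86, 87 and 485 on the compared arrays, and for cotyledon shade 92, 795 and 1542 became 207, 1483 and 3201, or 25, 91 and 470. Array weights gave 311 and 291 in cotyledon at 1.5 h for ethylene and shade.

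The other feature of the same gene, an alternative foreseen for the 3 genes, was not run because each gene has 1. PORB in control hypocotyl at 25.5 h averaged 4.61, close to the array medians of 4.15 to 4.55. Whether background limits its 51.0-fold span, 32.0-fold fall and hypocotyl rises at 25.5 h, which rest on that group, was not tested. The lowest group means of CHLM and GSA1 were 9.11 and 7.38.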
